A study of Mus musculus with 33 samples.

Results

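The epithelium of the distal colon was compared between old and young mice, with every cell of the distal colon libraries taken as it was deposited. These are 11 of the 33 libraries of an atlas of the aging mouse colon, and 5815 of its 23762 cells. The young group was 5 female wild-type C57BL6/J mice (1 of 8 weeks, 3 of 12 weeks and 1 of 20 weeks), and the old group was 6 mice of the same sex and strain (2 of 90 weeks, 1 of 92 weeks and 3 of 108 weeks). The labels do not tie an age in weeks to a mouse. Cecum and proximal colon of each mouse were made into libraries of their own. Crypts were isolated and dissociated, EpCAM-positive cells were sorted, and 3′ single-cell libraries were made with the 10X v2 or v3.1 kit. The sort was for epithelium, so a value describes crypt epithelium and not the gut wall. UMIs (unique molecular identifiers, each standing for 1 captured transcript) were summed over all cells of a library, the mouse was the replicate, and no cell classes entered the comparison.

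The colonic crypt renews itself from stem cells at its base. Their progeny become absorptive colonocytes, which take up water, salt and short-chain fatty acids, or secretory cells: mucus-making goblet cells, deep crypt secretory cells that lie among the stem cells, hormone-making enteroendocrine cells and tuft cells. In a sum over all cells, fewer cells of a type and less RNA per cell of that type cannot be told apart.

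The young libraries held 2063 cells (92 to 1323 per mouse) and the old ones 3752 (179 to 1245 per mouse). Libraries held 1348611 to 21288806 UMIs. The mice formed a deep batch (Young-1 to Young-3 and Old-1 to Old-3, medians of 24499 to 34300 UMIs per cell) and a shallow batch (Young-4, Young-5 and Old-4 to Old-6, medians of 2997.5 to 9755.5). The labels do not give the kit of a mouse, so the kit was not used, and this depth batch was a term of the tests. Young-5 stood apart, with the lowest median of 2997.5 UMIs per cell and a mitochondrial share of UMIs of 1.87%, where the other 10 libraries had 5.16% to 8.35%. Shallow libraries shared 15 barcodes over 10 pairs, deep libraries shared 0 over 15 pairs, and 1 barcode was shared between the batches. All 12 markers of the sorted epithelium were detected, and their summed level was 9564 to 14955 CPM (UMIs scaled to the same total in every library) in young and 8253 to 14758 CPM in old mice. Of these 12, 3 were lower in old mice at an unadjusted p below 0.05 (Krt8 at -0.45, Krt19 at -0.51 and Cldn7 at -0.27 on the log2 scale) and 0 higher. Of all tested genes, 4.26% were lower and 5.1% higher at this limit. Markers of other cell types were low. T cell markers summed to 1.3 to 5.53 CPM in young and 2.71 to 22.1 CPM in old mice, with the highest value in Old-3, and B and plasma cell markers to at most 11.6 CPM, in Young-3. Myeloid markers reached at most 13.4 CPM, fibroblast and smooth muscle markers 4.84 CPM, endothelial markers 12.2 CPM, neuron and glia markers 12.0 CPM, erythroid markers 1.01 CPM and markers of the squamous anal canal 19.7 CPM (19.4 CPM in young mice). Of 3 tested endothelial markers, Vwf (0.87) and Esam (1.03) were higher in old mice at an unadjusted p below 0.05, as were 5.1% of all tested genes. The other tested marker had a negative estimate. Vwf was at no more than 2.88 CPM and Esam at no more than 4.66 CPM in any library. The part of these markers in the results was not tested. Of these lists, 2 of 16 T cell, 3 of 13 B and plasma cell, 4 of 14 myeloid and 3 of 13 fibroblast and smooth muscle genes had no UMI in any distal library. In an alternative fit, cells that held at least 2 genes of the same marker list were left out. The lists used were T cell, B and plasma cell, myeloid, fibroblast and smooth muscle, endothelial and erythroid. Neuron and glia markers and squamous markers were not used to remove cells. In that fit, 17 genes were called in place of the 15 described next.

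Between old and young distal epithelium, 15 genes passed the test among 11409 tested, which is 0.131% of them. Of these, 9 were higher in old mice (0.0789% of the tested genes) and 6 were lower (0.0526%). The highest-ranked were the epithelial surface protein gene Vsig2, which rose, and the imprinted noncoding RNA Meg3, which fell to nearly no UMIs. The test was edgeR's quasi-likelihood test, two-sided, with the depth batch as a term, and a call is a Benjamini-Hochberg adjusted p below 0.05 over all tested genes. At an unadjusted p below 0.05, 582 genes were higher (5.1%) and 486 lower (4.26%). Over all 11 mice, 42 genes had every old value above every young value (0.368%) and 17 had every old value below (0.149%). For each of the 15 called genes, old and young mice did not overlap within the deep batch, nor within the shallow batch. The share of all tested genes with this trait was not counted. The calls rest on these same values with the batch as a term, so the trait is no added support. The count of calls depended on 3 young libraries: it was 7 without Young-3, 4 without Young-4 and 23 without Young-5. The 4 genes called without Young-4 were Vsig2, Meg3, Apoc1 and Hspa2, and these were also called without Young-3 and without Young-5.

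**Figure D1:**
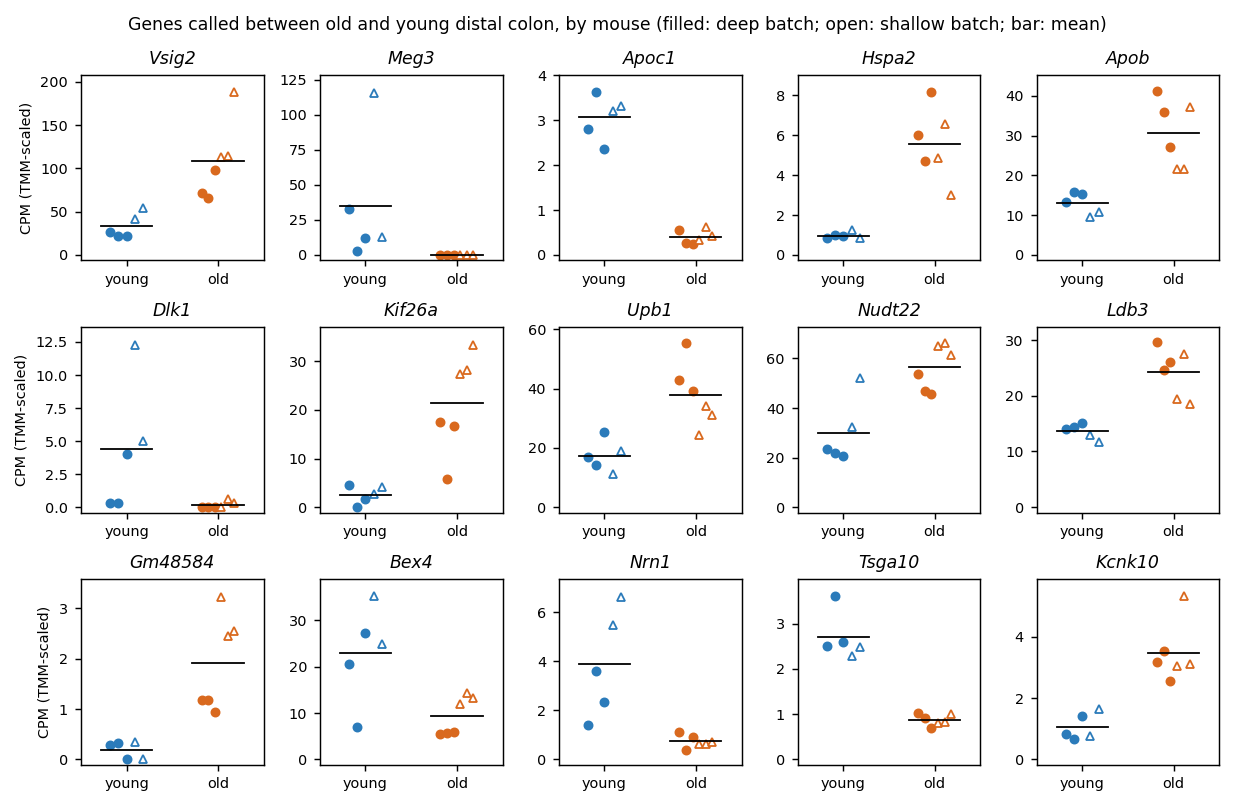
TMM-scaled CPM of the 15 called genes in each distal library, on linear axes from 0, with 1 point per mouse, filled for the deep batch and open for the shallow batch, and a bar at the mean of each age. Old mice lie above young mice for Vsig2, Hspa2, Apob, Kif26a, Ldb3, Gm48584 and Kcnk10 and below them for Meg3, Apoc1, Nrn1 and Tsga10, while for Upb1, Nudt22, Dlk1 and Bex4 the 2 ages overlap only when the depth batches are pooled.

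Meg3 is a long noncoding RNA made from the maternal copy of an imprinted domain on chromosome 12, in which Dlk1, a membrane protein of the Notch ligand family, is made from the paternal copy. In GRCm38 with the GENCODE M21 annotation, Meg3 (ENSMUSG00000021268) lies on the plus strand of chromosome 12 from 109541001 to 109571726, and Dlk1 (ENSMUSG00000040856) on the same strand from 109452823 to 109463336. Meg3 was at 32.7, 2.63, 12.0, 116 and 12.5 CPM in Young-1 to Young-5, after TMM scaling. It was at 0.13, 0, 0.23, 0.16, 0 and 0 CPM in Old-1 to Old-6. Every young value was above every old value, and Young-4 was far above the other young mice. As counts, this was 1557 UMIs in young libraries, 1366 of them from Young-4, against 5 UMIs in old libraries. The fitted log2 change, old minus young, was -6.46 (SE 0.68, adjusted p 0.000943), and it was -5.45 in the deep batch and -7.54 in the shallow batch. A fold of this size depends on the prior count of 2 used in the fit. Leaving out each mouse in turn, the highest adjusted p of edgeR for Meg3 was 0.0114. Meg3 was not called in the deep batch alone (edgeR adjusted p 0.115), nor from means of CPM per cell. The opposite-strand gene Gm26906, which overlaps Meg3, had 0 UMIs in all libraries.

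Dlk1 was at 0.28, 0.33, 4.00, 12.3 and 4.98 CPM in Young-1 to Young-5, and at 0, 0, 0, 0, 0.61 and 0.28 CPM in Old-1 to Old-6. Young-1 and Young-2 lay within the range of the old mice, and the other 3 young mice above it. The log2 change of Dlk1 was -3.57 (SE 0.49, edgeR adjusted p 0.00684), from 170 young and 5 old UMIs. It was not called without Young-4, which held 145 of its UMIs, where the adjusted p was 0.243. Mirg, a noncoding RNA of the same domain that hosts microRNAs, was too low to be tested, with 20 UMIs in young and 0 in old mice. A count of 3 UMIs, taken as the detection floor, is 0.141 to 0.732 CPM in the old libraries. Rian, another RNA of the domain, was not analysed here.

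Since Meg3 and Dlk1 fell together, the windows around their annotated start sites are given, from 250 bases before to 50 bases after the start (RefSeq, GRCm38.p6), for reading beside these values. Both are on the plus strand, written 5′ to 3′, at chr12:109540746-109541045 for Meg3 (the upstream of 2 annotated starts) and chr12:109452573-109452872 for Dlk1. Capitals mark exact matches, on either strand, to the cAMP response element TGACGTCA, the TATA box TATAAA, the CCAAT box CCAAT and the GC box GGGCGG.
Meg3: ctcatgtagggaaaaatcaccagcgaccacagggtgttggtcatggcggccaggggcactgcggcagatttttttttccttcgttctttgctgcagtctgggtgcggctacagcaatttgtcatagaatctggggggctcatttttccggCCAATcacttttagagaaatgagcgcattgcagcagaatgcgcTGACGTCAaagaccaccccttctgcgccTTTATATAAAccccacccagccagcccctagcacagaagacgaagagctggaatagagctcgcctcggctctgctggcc
Dlk1: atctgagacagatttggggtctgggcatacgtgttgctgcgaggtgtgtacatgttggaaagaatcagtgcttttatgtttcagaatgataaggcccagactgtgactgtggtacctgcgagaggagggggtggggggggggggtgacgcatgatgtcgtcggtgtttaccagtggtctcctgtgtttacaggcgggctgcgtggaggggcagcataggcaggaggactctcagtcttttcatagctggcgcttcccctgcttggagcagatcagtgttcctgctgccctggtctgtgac
The Meg3 window held a CCAAT box at base 151, a cAMP response element at base 194 and TATA boxes on both strands at bases 222 and 226, which overlap each other, counted from base 1 at the left. The Dlk1 window held none of the 4 motifs. Among 32851 RefSeq windows of this length, 1.79% held the cAMP response element, 13.6% the TATA box, 37.4% the CCAAT box and 35.7% the GC box. The Meg3 window held 13 CpG dinucleotides and the Dlk1 window 9, against a median of 7 over all windows. These are matches of letters and say nothing of what binds there.

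Meg3 UMIs lay in few young cells, and most of those cells were rich in goblet cell transcripts. Of 2063 young cells, 103 held a Meg3 UMI, and of 3752 old cells 5 did, each with 1 UMI. In Young-1, 3 cells held all 117 Meg3 UMIs, and 73 of these were in 1 cell. In Young-4, 90 of 1323 cells held Meg3, and their Muc2 level, the gel-forming mucin of goblet cells, was 26783 CPM against 2157 CPM in the cells without Meg3. The same direction held in the other young mice, with Muc2 at 13959 against 2182.5 CPM in Young-1, 10961 against 1044 CPM in Young-2, 11978 against 1938 CPM in Young-3 and 17780 against 3145 CPM in Young-5. These pairs rest on 3, 1, 4 and 5 cells with Meg3, and are unscaled. The goblet protein gene Agr2 was also higher in cells with Meg3 of all 5 young mice. Other goblet genes differed between mice: Fcgbp was lower in cells with Meg3 of Young-1 (95.4 against 442 CPM) and Young-5 (166 against 1388 CPM) and near equal in Young-4 (371 against 359 CPM), and Spdef was lower in Young-5 (55.4 against 90.2 CPM). Over the whole goblet and mucus list of 29 genes, the cells with Meg3 had 4.19, 4.44, 2.52, 3.14 and 1.7 times the level of the cells without it in Young-1 to Young-5. The absorptive colonocyte list was at 0.238, 0.101, 0.335, 0.245 and 0.43 times, and the cell cycle list at 0.241, 0.157, 0.183, 0.298 and 0.185 times. So the goblet list was higher, and the colonocyte and cell cycle lists lower, in cells with Meg3 of every young mouse. This was not particular to the goblet list. The deep crypt secretory and secretory progenitor list was at 2.51, 22.2, 1.44, 1.96 and 1.76 times in Young-1 to Young-5. The endoplasmic reticulum stress, interferon response, and Bex and Tceal lists were also higher in cells with Meg3 of every young mouse. Cells with Meg3 had a median of 7623 UMIs in Young-4, below the 9005 of the cells without it. In Young-4, 16 of the 24 cells with Dlk1 and 13 of the 13 cells with Mirg also held Meg3. For Dlk1 this was 0 of 1 cell in Young-1, 0 of 1 in Young-2, 1 of 8 in Young-3 and 1 of 2 in Young-5. For Mirg it was 2 of 2 cells in Young-1 and 2 of 2 in Young-3.

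Cells with at least 5% of their UMIs in the goblet list, a limit chosen after the data were seen, are called goblet-rich here. They are a range of a score and not a cell type, and 201 young and 559 old cells lay between 4% and 6%. Goblet-rich cells made up 22.8%, 13.3%, 18.7%, 22.8% and 38.4% of cells in Young-1 to Young-5, and 19.9%, 18.9%, 15.6%, 31.4%, 27.1% and 26.5% in Old-1 to Old-6, so the ages overlapped. Meg3 was present in 3 of 21, 1 of 14, 2 of 26, 81 of 301 and 4 of 155 goblet-rich cells of Young-1 to Young-5. It was present in 1 of 125 goblet-rich cells of Old-1 and in none of the 59, 28, 391, 139 and 232 goblet-rich cells of Old-2 to Old-6. Pooled, this is 17.6% of 517 young cells and 0.103% of 974 old cells. Cells are not replicates of an age, and 81 of the young cells with Meg3 came from Young-4. By mouse the share was 2.58% to 26.9% in young mice and at most 0.8% in old mice. Without Young-4 the young share was 4.63%. In all other cells the shares were 0.776% of 1546 young cells and 0.144% of 2778 old cells. Thinned to 1500 UMIs per cell, which left out 0 cells, 78 young and 0 old goblet-rich cells held Meg3. Since Meg3 was chosen for its difference in the sums, these shares are a description with no test.

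**Figure D2:**
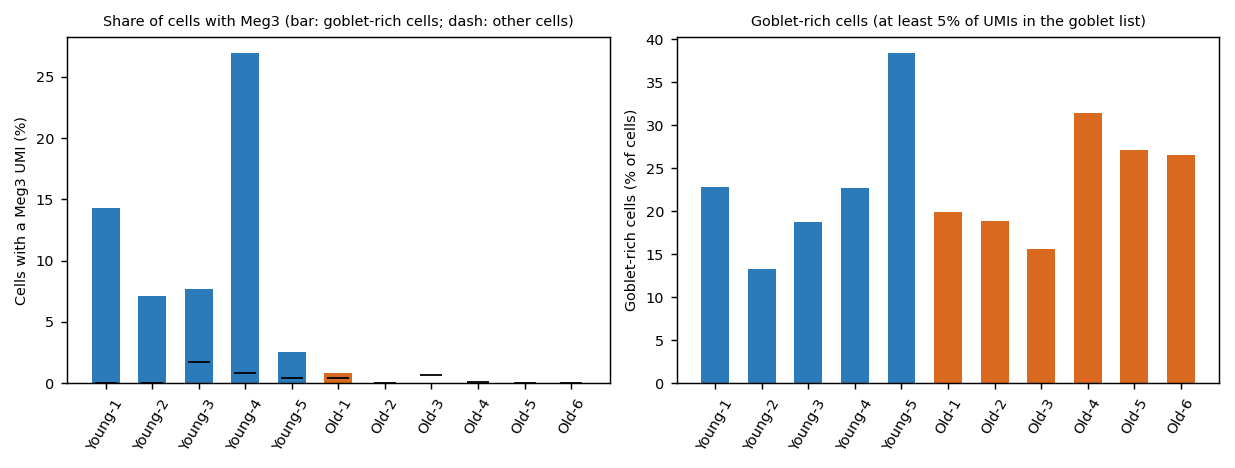
Left, the share of cells with at least 1 Meg3 UMI in each distal library, as a bar for goblet-rich cells and a dash for all other cells. Right, the share of cells that are goblet-rich in the same libraries, which overlaps between ages while Meg3 was in 2.58% to 26.9% of goblet-rich cells in young mice and at most 0.8% in old mice.

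The imprinted list held 22 genes, of which 9 were tested, and 2 of them, Meg3 and Dlk1, passed the test. Of all tested genes, 0.131% passed. Meg3 and Dlk1 are the neighbours described above, and the list was chosen with earlier results of these data known. The count is therefore no separate support. Kcnq1ot1, an imprinted RNA that runs antisense to the potassium channel gene Kcnq1, had a log2 change of -1.45 (SE 0.35, adjusted p 0.230) and did not pass. The other 6 tested members were Igf2r (-0.08), Snrpn (-0.31), Phlda2 (-0.38), Zrsr1 (0.09), Impact (0.38) and Cdkn1c (0.67). The median log2 change of the list was -0.31, against 0.01 over all tested genes. H19 and Igf2 were not analysed here.

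Among the genes that rose, Vsig2, an immunoglobulin-domain protein of the epithelial cell surface, had the smallest p. It was at 26.0, 22.4, 22.4, 41.3 and 54.8 CPM in Young-1 to Young-5 and at 72.1, 65.8, 98.0, 114, 114 and 188 CPM in Old-1 to Old-6. The lowest old mouse was above the highest young mouse. The log2 change was 1.65 (SE 0.17, edgeR adjusted p 0.000943), with 1.72 in the deep and 1.56 in the shallow batch. Vsig2 kept its call without each mouse in turn (highest adjusted p 0.00785). It was not called with no batch term, nor in the shallow batch alone (edgeR adjusted p 0.215).

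Apob, the structural protein of chylomicrons and very low density lipoprotein, rose from 12.96 ± 2.77 CPM (SD, n = 5) to 30.8 ± 8.53 CPM (SD, n = 6). Its young values ran from 9.47 to 15.8 CPM and its old values from 21.5 to 41.2 CPM. The log2 change was 1.31 (SE 0.18, edgeR adjusted p 0.00684), and without Young-4 it was not called (adjusted p 0.0884). Apob is also on the list of ileal enterocyte and Paneth cell markers, of which 13 genes were tested. Of these, 1 was called higher (Apob) and 0 were called lower, where 0.131% of all tested genes were called. The summed level of that list was 159 to 1322 CPM in young and 163 to 999 CPM in old mice, and its part in the Apob result was not tested. Apoc1, a small exchangeable apolipoprotein, went the other way. It was at 2.80, 3.62, 2.35, 3.21 and 3.32 CPM in Young-1 to Young-5 and at 0.55, 0.26, 0.23, 0.32, 0.61 and 0.43 CPM in Old-1 to Old-6. The groups were wide apart, and the log2 change was -2.23 (SE 0.26, edgeR adjusted p 0.00186), a call kept without each mouse in turn (highest adjusted p 0.0450).

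Hspa2, a heat shock protein of the Hsp70 family best known from the testis, was at 0.84, 0.99, 0.94, 1.27 and 0.83 CPM in Young-1 to Young-5 and at 6.02, 4.70, 8.16, 4.83, 6.56 and 2.98 CPM in Old-1 to Old-6. Every old mouse was above every young mouse. Its log2 change was 2.11 (SE 0.28, edgeR adjusted p 0.00684), and the highest adjusted p without any mouse was 0.0394. Of the immediate early and heat shock list, 0 of 26 tested genes were called by edgeR, DESeq2 or limma-voom. Of all tested genes, edgeR called 0.131%. At an edgeR unadjusted p below 0.05, 1 member of the list was lower in old mice, Hspa1a (-1.47), and 0 were higher. Hspa8 (log2 change -0.21) and Hsp90ab1 (-0.24) were the most abundant members of the list. Hspa2 was no member of that list.

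Kif26a, an atypical kinesin, had the largest positive log2 change among the called genes, 2.86 (SE 0.41, edgeR adjusted p 0.0102). It was at 4.48, 0, 1.65, 2.71 and 4.15 CPM in Young-1 to Young-5 and at 17.5, 5.87, 16.8, 27.4, 28.3 and 33.4 CPM in Old-1 to Old-6. It was not called without Young-3 or without Young-4 (highest adjusted p 0.109). Upb1, the last enzyme of pyrimidine breakdown, rose by 1.21 (SE 0.18, edgeR adjusted p 0.0110), from 17.3 ± 5.34 CPM (SD, n = 5) to 37.8 ± 10.7 CPM (SD, n = 6). Nudt22, a Nudix hydrolase, rose by 0.93 (SE 0.14, edgeR adjusted p 0.0112), from 30.1 ± 13.2 to 56.5 ± 9.12 CPM. Over all mice the ages overlapped for both genes, through Young-3 and Old-4 for Upb1 and through Young-5 for Nudt22. Upb1 was lost without Young-4, and Nudt22 without Young-3 or Young-4 (highest adjusted p 0.0958 for each).

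Ldb3, a cytoskeletal adaptor with PDZ and LIM domains known from the muscle Z-disc, rose by 0.83 on the log2 scale (SE 0.13, edgeR adjusted p 0.0220), from 13.6 ± 1.35 CPM (SD, n = 5) to 24.3 ± 4.46 CPM (SD, n = 6). Kcnk10, a leak potassium channel, rose by 1.58 (SE 0.28, edgeR adjusted p 0.0468), from 0.66 to 1.66 CPM in young to 2.57 to 5.33 CPM in old mice. Gm48584, a long intergenic noncoding RNA, rose by 2.04 (SE 0.33, edgeR adjusted p 0.0224), from at most 0.34 CPM in young to 0.93 to 3.22 CPM in old mice. Ldb3 was lost without any of Young-1 to Young-4 or without Old-1 (highest adjusted p 0.0958), and Gm48584 without Young-3, Young-4 or Old-1 (0.346). Kcnk10 was lost without any mouse but Young-5 (0.409).

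Among the genes that fell, Bex4, a small X-linked protein of the brain-expressed family, was at 20.7, 6.91, 27.3, 35.3 and 24.9 CPM in Young-1 to Young-5. It was at 5.51, 5.61, 5.83, 11.9, 14.4 and 13.2 CPM in Old-1 to Old-6. Young-2 lay within the old range, and the other young mice above it. The log2 change was -1.47 (SE 0.25, edgeR adjusted p 0.0319). Bex4 was present in 320 of 2063 young and 256 of 3752 old cells. Of the Bex and Tceal list, 7 of 13 genes were tested and Bex4 alone was called, where 0.131% of all tested genes were called. Bex1 was at -0.71 (edgeR adjusted p 0.486), Bex3 at 0.11 and Tceal9 at 0.11.

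Nrn1, the membrane-anchored neuritin, fell by 1.89 (SE 0.33, edgeR adjusted p 0.0398), from 1.40 to 6.64 CPM in young to 0.39 to 1.10 CPM in old mice. Tsga10, known as a sperm tail protein, fell by 1.30 (SE 0.23, edgeR adjusted p 0.0425), from 2.28 to 3.62 CPM in young to 0.70 to 1.02 CPM in old mice. Old and young mice did not overlap for either. These calls were close to the threshold: Bex4 was lost without any mouse but Young-2 and Young-5 (highest adjusted p 0.243), Nrn1 without any but Young-1 and Old-1 (0.346), and Tsga10 without any of the 11 mice (0.272). How the counting treated strand is not given in the sources used here. Upb1, Nrn1, Tsga10 and Kcnk10 overlap genes on the opposite strand (Gucd1 for Upb1, Fars2 for Nrn1), so the source of their UMIs is uncertain.

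**Figure D3:**
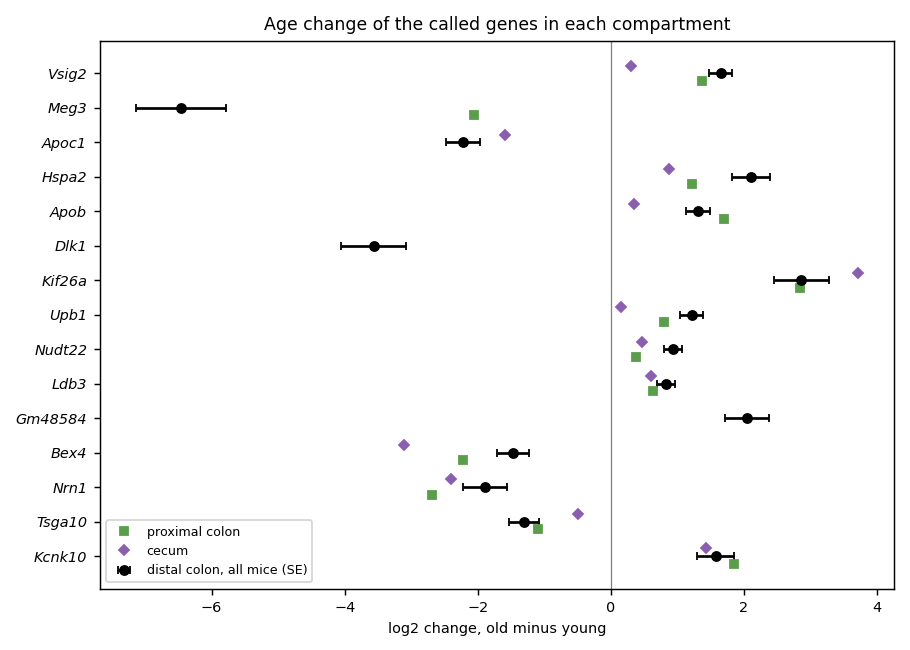
Log2 change, old minus young, of the 15 called genes in the distal colon (black, with the standard error of the fit) and, where tested, in the proximal colon (squares) and the cecum (diamonds) of the same mice. Bex4 was also called lower in both other compartments, and Meg3 stands at -6.46 in the distal and -2.06 in the proximal colon.

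The same mice gave cecum and proximal colon libraries, which were fitted separately. Bex4 was called in these too, at -2.22 in the proximal colon (edgeR adjusted p 0.00830) and -3.11 in the cecum (0.00671), and no other of the 15 genes was called there. Vsig2 was at 1.36 in the proximal colon (adjusted p 0.219) and 0.31 in the cecum (1.00). Kif26a was at 2.85 (0.225) and 3.72 (0.136), Kcnk10 at 1.85 (0.0783) and 1.43 (0.0564), and Nrn1 at -2.69 (0.226) and -2.40 (0.126). Meg3 was at -2.06 in the proximal colon, and it was too low to be tested in the cecum. In the proximal colon, the Old-1 library, of 47 cells, had 35.6 CPM of Meg3, which was above every young mouse. The young proximal libraries had 12.96, 0, 9.44, 8.57 and 2.03 CPM in Young-1 to Young-5. The distal library of Old-1 had 0.13 CPM, and the proximal libraries of the other old mice had at most 0.13 CPM. For none of the 15 genes did the age change in the distal colon differ from the mean of the other compartments at an adjusted p below 0.05 (edgeR, mouse as a block). The smallest of these adjusted p values was 0.120, for Bex4, whose fall was smaller in the distal colon by 1.23 on the log2 scale (SE 0.27), and Meg3 had a difference of -5.98 (SE 1.92, adjusted p 0.337).

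For 4 of 12878 tested genes (0.0311%), the age change in the distal colon differed from the mean change in the other compartments. All 4 differences were negative. Against the proximal colon alone, Emp1, Slc13a2 and Ccz1 were not called, and Kcnq1ot1 kept its call. Emp1, an epithelial membrane protein on the colonocyte list, had a difference of -2.15 (SE 0.31, edgeR adjusted p 0.0126). In the distal colon Emp1 was at 1.96, 10.9, 3.77, 77.2 and 44.8 CPM in Young-1 to Young-5 and at 0.42, 1.44, 1.17, 12.7, 23.0 and 28.1 CPM in Old-1 to Old-6. Young mice were above old mice within each depth batch, and the batches were far apart. In the cecum Emp1 was at 14.2 to 119 CPM in young and 11.8 to 216 CPM in old mice. Its own log2 change was -1.81 in the distal colon (adjusted p 0.0872), -0.23 in the proximal colon and 0.60 in the cecum.

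Kcnq1ot1 had a difference of -1.64 (SE 0.26, edgeR adjusted p 0.0198). It was at 54.8, 38.2, 97.3, 38.2 and 27.4 CPM in Young-1 to Young-5 and at 35.4, 15.9, 21.7, 3.22, 22.3 and 8.80 CPM in Old-1 to Old-6 in the distal colon, where Old-1 alone reached into the young range. In the cecum the ranges were 13.01 to 29.1 CPM in young and 2.71 to 39.1 CPM in old mice. Slc13a2, the sodium-coupled transporter of succinate and citrate, had a difference of -1.53 (SE 0.27, edgeR adjusted p 0.0392), with 11.2 to 57.8 CPM in young and 8.22 to 49.7 CPM in old distal colon. Its own log2 change was -1.10 in the distal colon, -0.09 in the proximal colon and 0.98 in the cecum. Ccz1, a subunit of the Mon1-Ccz1 exchange factor of late endosomes, had a difference of -0.44 (SE 0.08, edgeR adjusted p 0.0392), from 66.7 ± 8.80 CPM (SD, n = 5) in young to 50.1 ± 6.32 CPM (SD, n = 6) in old distal colon. Kcnq1ot1, Slc13a2 and Ccz1 overlap genes on the opposite strand, so the source of their UMIs is uncertain. With depth batch and age as terms, none of the 4 was called by edgeR in the distal colon alone, where DESeq2 called Emp1 (-2.04, adjusted p 0.0347). At an unadjusted p below 0.05, 1168 genes differed between compartments. The count of 4 changed with single mice in either direction: it was 2 without Young-1, Young-2 or Old-6, 33 without Young-5 and 14 without Old-1. No tool other than edgeR was run for this difference, and the count was 0 without Young-3 (903 genes at an unadjusted p below 0.05), Young-4 (850), Old-4 (964) or Old-5 (1018).

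**Figure D4:**
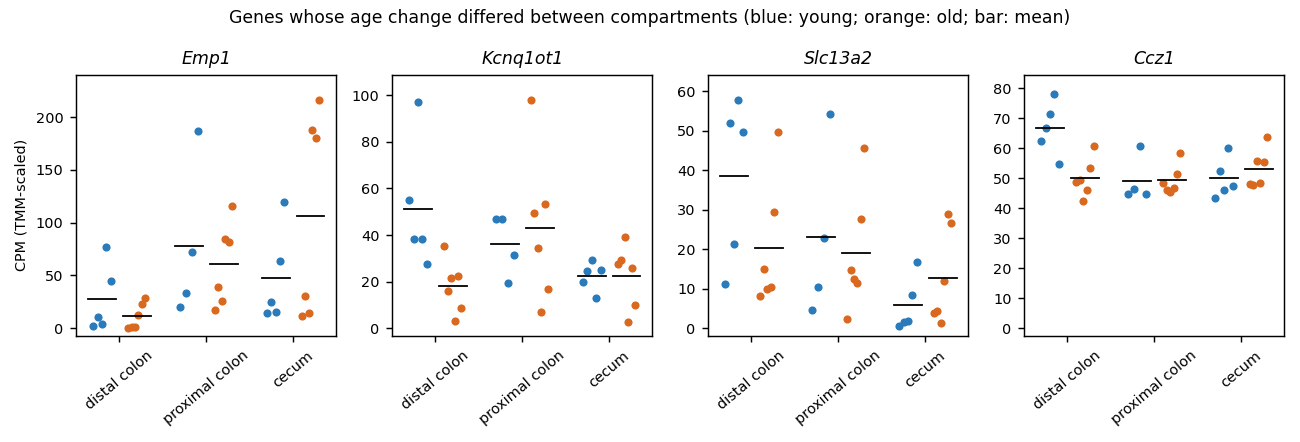
TMM-scaled CPM of Emp1, Kcnq1ot1, Slc13a2 and Ccz1 by mouse in the 3 compartments (blue young, orange old, bar at the mean), on linear axes from 0. Libraries under 20 cells are left out, and old means lie below young means in the distal colon for all 4 genes, as in Ccz1 with 50.1 against 66.7 CPM.

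The called genes were spread unevenly over chromosomes. Chromosome 12 held 393 of the tested genes (3.44%) and 7 of the 15 calls: in order of position Apob, Gm48584, Hspa2, Kcnk10, Dlk1, Meg3 and Kif26a, from base 7977648 to base 112181747. Of its tested genes 1.78% were called, against at most 0.301% on any other chromosome (1 of 332 on X). Dlk1 and Meg3 fell and the other 5 rose. At an unadjusted p below 0.05 chromosome 12 was like the others, with 10.4% of its genes against 6.96% to 12.3%. This grouping was noticed after the calls were known and was not tested. The labels give the strain of all mice as C57BL6/J and do not say whether old and young mice came from the same breeding stock, so a difference of age and one of stock cannot be told apart.

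Beyond the called genes, the gene lists of the crypt cell types gave counts at an unadjusted p below 0.05 that are described here beside the shares of all tested genes (5.1% higher, 4.26% lower). Of the absorptive colonocyte list, 0 of 30 tested genes were called by edgeR or limma-voom, and 2 were called lower by DESeq2, Emp1 and Mall. With the replicate number as a block, an alternative given below, the edgeR calls included Car1, Mall, Selenbp1 and Emp1. At an unadjusted p below 0.05, 15 were lower in old mice and 1 was higher, and 27 of the 30 estimates were negative, with a median of -0.55. Car1, the carbonic anhydrase of the upper crypt, was at -1.43 (SE 0.46, edgeR unadjusted p 0.00764, adjusted p 0.345), with 927 ± 729 CPM in young (SD, n = 5) and 548 ± 567 CPM in old mice (SD, n = 6). Tgm3 was at -1.04, the water channel gene Aqp4 at -0.90, the keratin genes Krt20 at -0.85 and Krt19 at -0.51, and Lypd8, which keeps bacteria from the epithelium, at -0.52. Guca2b, the gene of the peptide uroguanylin, was the member higher in old mice, at 0.53. The summed level of the list was 8978, 17144, 12396, 24628 and 18472 CPM in Young-1 to Young-5 and 7279, 10782, 6799, 11798, 15206 and 23949 CPM in Old-1 to Old-6, so the ages overlapped. The count of 15 was 7 without Young-2 or without Old-1, 8 without Old-3 and 9 without Young-4. It was 12 in the deep batch alone and 4 in the shallow batch alone.

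The secretory lists leaned the other way. Of the deep crypt secretory and secretory progenitor list, 0 of 10 genes were called by edgeR, DESeq2 or limma-voom, 6 were higher at an unadjusted p below 0.05 and 0 lower, and the median was 0.45. With the replicate number as a block, an alternative given below, the edgeR calls included Mptx1 and Reg4. These 6 were Mptx1, a pentraxin, at 1.29, Kit, the receptor that marks deep crypt secretory cells, at 0.89, the lectin gene Reg4 at 0.81, the Notch ligand gene Dll4 at 0.75, Hepacam2 at 0.52 and Hes6 at 0.33. Mptx1 was at 9847, 15121, 17593, 11011 and 27104 CPM in Young-1 to Young-5 and at 30407, 45520, 30355, 38895, 78610 and 19007 CPM in Old-1 to Old-6. All old mice but Old-6 were above all young mice (log2 change SE 0.33, edgeR adjusted p 0.246). The count of 6 stayed between 5 and 7 without each mouse in turn, was 6 in the deep batch alone and 0 in the shallow batch alone, and was 3 with cells thinned to 1500 UMIs.

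Of the goblet and mucus list, 0 of 27 tested genes were called by any of the 3 tools, 6 were higher at an unadjusted p below 0.05 and 0 lower, with a median of 0.33. Fer1l6 was at 1.16, Sytl2, which acts in granule docking, at 0.83, Bcas1 at 0.80, and the transcription factor genes Atoh1 at 0.67 and Foxa3 at 0.60. Of the major products, Agr2 (0.33) was at the median of the list, and Muc2 (0.18) and Spink4 (0.08) were below it. Without Young-5 the count was 14, and without Young-4 it was 4. Of the enteroendocrine list, 0 of 17 tested genes were called by the 3 tools, 5 were higher (Pyy, Scg2, Fev, Isl1 and Neurod1) and 1 lower (Sct) at an unadjusted p below 0.05. Pyy, the hormone peptide YY, was at 0 to 757 CPM in young and 2.48 to 1031 CPM in old mice, and Gcg, the glucagon gene, at 0 to 174 and 0.13 to 398 CPM. Of the tuft cell list, 0 of 13 were called by the 3 tools and 0 passed an unadjusted p below 0.05, with a median of 0.61, Rgs13 at 0.97 and Fyb at 0.81.

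Of the stem and WNT target list, 0 of 19 tested genes were called by the 3 tools and 3 were higher at an unadjusted p below 0.05, the stem cell transcription factor gene Ascl2 (0.97), Ephb3 (1.01) and Rnf43 (0.40). Lgr5, the stem cell receptor, was at 0.34 (edgeR adjusted p 0.748), Slc12a2 at 0.25 and Sox9 at 0.12, and the median was 0.32. Without Young-4 the count was 0, and without Young-1 it was 6. Of 24 cell cycle genes 0 were called by the 3 tools, 1 (Ube2c, -0.74) was lower at an unadjusted p below 0.05, and 23 of the 24 estimates were negative, with a median of -0.34, Hmgb2 at -0.20 and Stmn1 at -0.06.

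The nuclear genes of oxidative phosphorylation had small changes of the same sign. All 39 tested members had a negative estimate, with a median of -0.29, and 17 were lower at an unadjusted p below 0.05. None was called by edgeR, and Cox6b2, a cytochrome oxidase subunit known from the testis, was called lower by DESeq2 and limma-voom (log2 change -1.37, edgeR adjusted p 0.0564). Cox6c was at -0.46, Cox5b at -0.48, Cox8a at -0.32 and Cox4i1 at -0.30. The summed level was 27079 to 50543 CPM in young and 24332 to 46415 CPM in old mice. The count of 17 was 28 without Young-1, 25 without Old-6, 6 without Young-5, 7 without Old-1, 8 without Young-2, 10 without Old-5 and 11 without Young-3, and it was 4 in the deep and 2 in the shallow batch alone. Of the 13 mitochondrially encoded genes, 0 were called by the 3 tools and 0 passed an unadjusted p below 0.05, with mt-Co1 at 0.30, mt-Atp6 at 0.29 and a median of 0.16.

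S100g, the vitamin D dependent calcium-binding protein calbindin-D9k of the gut, was at 15.5 ± 12.3 CPM in young (SD, n = 5) and 4.84 ± 1.17 CPM in old mice (SD, n = 6). Its log2 change was -1.44 (SE 0.33, edgeR adjusted p 0.171), and it was -0.48 in the deep and -2.44 in the shallow batch. Of the calcium and vitamin D list, 0 of 12 tested genes were called by edgeR or limma-voom and 3 by DESeq2 (S100g, S100a11 and Trpv6), all lower. At an unadjusted p below 0.05, 6 were lower and 0 higher. The S100 family, part of which is on that list too, had 5 of 9 lower and 0 higher, with a median of -0.37, S100a6 at -0.58, S100a10 at -0.63 and S100a11 at -0.44. DESeq2 called S100a11 and S100g of the family. The vitamin D receptor gene Vdr was at 0.00.

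The other lists had 0 genes called by edgeR, DESeq2 or limma-voom. Brackets in this paragraph hold members chosen for their abundance and not for their p. Of those, Gsdmc4, Ly6e, Ifi27l2b and Cldn7 had an edgeR unadjusted p below 0.05, and the others did not. At an unadjusted p below 0.05, the ion and water transport list had 6 of 22 lower and 1 higher (Atp1b1 at -0.08), antimicrobial and mucosal defence 4 of 26 lower and 0 higher (Pigr at 0.03, Gsdmc4 at -0.92), and xenobiotic and redox metabolism 5 of 37 lower and 0 higher (Txn1 at -0.18, Prdx1 at 0.06). Fatty acid and ketone metabolism had 3 of 27 lower and 0 higher (Fabp2 at -0.49, Scd2 at 0.05), and endoplasmic reticulum stress 3 of 22 higher and 0 lower (Hspa5 at 0.41, Calr at 0.06). Those 3 were Xbp1 at 0.43, Ern1 at 0.57 and Sel1l at 0.29. Interferon response had 1 of 19 higher and 2 lower (Ly6e at 0.42, Ifi27l2b at -0.32), antigen presentation 0 of 18 higher and 1 lower (H2-D1 at -0.04, H2-K1 at -0.09), and junction and adhesion 1 of 27 higher and 2 lower (Epcam at -0.19, Cldn7 at -0.27). The senescence and p53 list had 0 of 18 higher and 1 lower, Cdkn2b at -0.69, with Cdkn1a at -0.35 and Bax at -0.03.

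**Figure D5:**
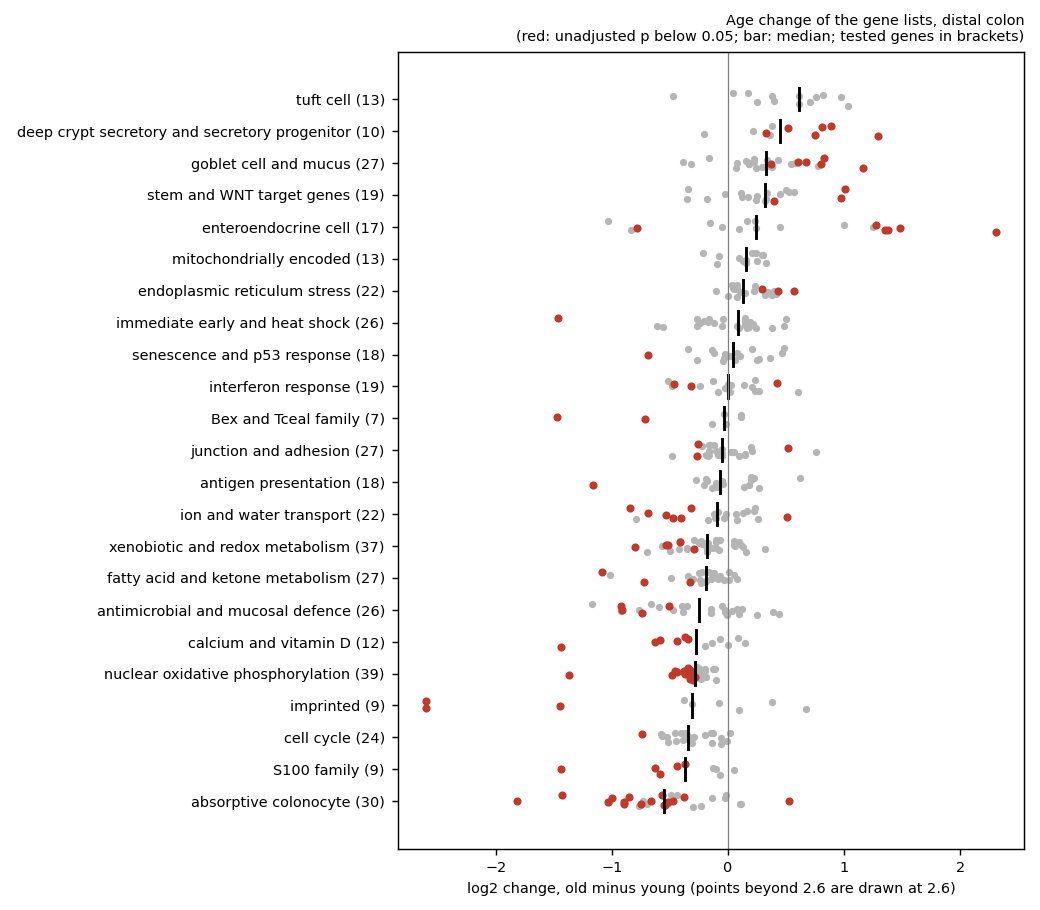
Log2 change, old minus young, of every tested gene of each gene list (1 point per gene, red at an unadjusted p below 0.05, black bar at the list's median, number of tested genes in brackets, points beyond the axis drawn at its edge). The absorptive colonocyte list has the lowest median, -0.55, and the tuft cell list the highest, 0.61, against 0.01 over all tested genes.

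Depth, mitochondrial share and yield were compared by exact permutation of ages within the depth batches (two-sided, 200 arrangements). Median UMIs per cell were 20477 ± 13667 in young (SD, n = 5) and 17537 ± 11341 in old mice (SD, n = 6), with an exact p of 0.740 within batches. The mitochondrial share was 5.66% ± 2.42 in young (SD, n = 5) and 6.43% ± 1.02 in old mice (SD, n = 6), with an exact p of 0.455. Cells per library were 413 ± 525 in young (SD, n = 5) and 625 ± 389 in old mice (SD, n = 6), with an exact p of 0.435. None of these differences was larger than the spread between mice.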

How the data were processed

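The members of the comparison and the gene lists were chosen with earlier results of these data known. For each library the authors deposited the raw UMI count of every gene in every cell barcode. Per the submitters' processing notes the tables came from Cell Ranger with the mm10 build, and the version and the strand setting are not given in the sources used here. Every deposited cell was kept, doublets were not called, and 21497 of 21852 gene symbols matched GENCODE M21.

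UMIs were summed per library. After filterByExpr and TMM scaling, edgeR 4.0.16 (R 4.3.3, limma 3.58.1) gave the quasi-likelihood test, with depth batch and age as terms, a prior count of 2 and Benjamini-Hochberg adjustment. The difference between compartments used libraries of at least 20 cells, with the mouse as a block. DESeq2 1.42.0 and limma-voom were alternatives. CPM values are TMM-scaled unless said otherwise. On simulated counts with 200 changed genes, the test between ages, run on 11265 genes, called 76% of those changed by 1 and 99% of those changed by 2 on the log2 scale, with 5.41% false calls. For the difference between compartments these were 62.6% and 91.8%, with 5.59% false calls. The counts were drawn from fitted means and dispersions. They may not hold for genes whose UMIs came mostly from 1 mouse or a few cells. Depth, mitochondrial share and yield were tested by exact permutation in Python 3.11.15. Totals of 1348611 to 21288806 UMIs per library set the precision of low genes.

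Genes were named by rule: all called genes, the 2 most abundant members of a list with fewer than 2 named genes, and the genes called for a difference between compartments. Other list members named in the text, and Ppy, were chosen after their values were seen, and some genes that the rule names are not reported here. Alternatives covered the normalization, the filter, the batch term, each depth batch alone, the replicate number as a block, means of CPM per cell, cells thinned to 1500 UMIs, removal of cells or mitochondrial genes, and each mouse left out in turn. The cecum and proximal colon libraries served only as the contrast.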

Additional observations from a re-analysis of the deposited data

Results flagged for a closer look

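In 16 of the 130 sets of values examined (a gene or library measure within 1 age), the highest or lowest mouse stood apart from the rest of its age by Dixon's criterion, which chance alone gives in about 1 of 20 sets. Young-5 stood high among young mice for Spink4 (12810 CPM), Reg4 (3610 CPM), Pyy (757.1 CPM) and Gcg (174.3 CPM). Young-4 stood high for Meg3 (115.6 CPM), Rgs13 (53.04 CPM), Hspa8 (2546 CPM) and cells per library (1323 cells). Young-2 stood high for Tsga10 (3.619 CPM) and Gsdmc4 (1763 CPM). Among old mice, Old-5 stood high for Kcnk10 (5.328 CPM) and Reg4 (6189 CPM), Old-3 for Fyb (73.24 CPM), and Old-6 for Ifi27l2b (346.3 CPM). Old-4 stood low for Epcam (1511 CPM) and Hsp90ab1 (794.2 CPM).

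The age change differed between the distal colon and the mean of the other compartments, by the test of the difference, for Emp1 (-2.149), Kcnq1ot1 (-1.639), Slc13a2 (-1.527) and Ccz1 (-0.4409), in log2 units.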

How the results depend on the processing

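The 15 calls between ages became 49 with DESeq2, 353 with no low-count filter, 3 with no batch term, 1 in the deep batch alone, 6 in the shallow batch alone, 8 from means of CPM per cell and 7 with cells thinned to 1500 UMIs. Not all of these were among the 15. Of the 15, 3 were still called in the shallow batch alone and 4 with thinned cells. Apob, Upb1, Nudt22 and Ldb3 lost their calls with thinned cells and also with no batch term. The count of calls ranged from 4 to 23 when a mouse was left out. The 4 differences between compartments became 27 against the cecum alone, 2 against the proximal colon alone, 10 with libraries of at least 100 cells, 69 with no low-count filter and 2 without the compartment by depth batch term, and ranged from 0 to 33 when a mouse was left out. The cause was not tested. DESeq2 called all 15 genes, and limma-voom, RLE factors and removal of mitochondrial genes gave counts within 1.5 times of 15. No named gene changed direction past the threshold under any alternative run. With the replicate block, the shared replicate number as a term, 83 genes were called, 13 of the 15 among them, and also Mptx1 (1.47, edgeR adjusted p 0.00554), Reg4 (0.98, 0.00909), Car1 (-1.76, 0.0260), Mall (-1.02, 0.00831), Selenbp1 (-0.86, 0.00841), Emp1 (-1.93, 0.00909) and Slc13a2 (-1.35, 0.0341). The deviations of same-numbered old and young mice correlated at 0.34, 0.47, 0.31, -0.03 and -0.000865 for numbers 1 to 5. For numbers 1 to 3, in the deep batch, this was above the highest correlation with a mouse of another number (0.19, 0.19 and 0.13), and for numbers 4 and 5 it was below it (0.16 and 0.14). The labels give no origin for a pairing and not every pair correlated, so the test without the block was kept. The age difference in median UMIs per cell in the distal colon, within batches, was -768, and it reversed on the log2 scale to 0.14 and ranged from -2250.1 to 516 when a mouse was left out. The difference in mitochondrial share was 0.887 percentage points and ranged from -0.15 to 1.45, the lowest without Young-5. All of these stayed above an exact p of 0.05. The share of goblet-rich cells of young mice with a Meg3 UMI was 13.25% with the limit at 3% and 18.94% at 10% (alternatives chosen after seeing the data), against 0.127% and 0% in old mice, where 0 of 191 cells allow up to 1.57%. Low depth limits genes such as Mirg and Dlk1, whose UMIs per library were few.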

Other observations

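Ppy, which encodes pancreatic polypeptide, a hormone of endocrine cells related to peptide YY, was chosen after its values were seen. It was at 0, 0.33, 0, 1.18 and 0 CPM in Young-1 to Young-5 and at 20.9, 0.13, 0, 198, 476 and 39.0 CPM in Old-1 to Old-6. In Old-2 and Old-3 it lay within the young range. The log2 change was 7.07 (SE 1.36, edgeR adjusted p 0.0709), so Ppy was not called, though it was among the calls of DESeq2 and of the fit on cells thinned to 1500 UMIs. Its UMIs lay in very few cells. In Old-1, 1 cell held all 492 of them, in Old-5 a cell held 2307 of 2321, and in Old-6 a cell held 263 of 275. In all, 39 of 3752 old and 4 of 2063 young cells held Ppy, and 282 old and 133 young cells held Pyy.

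In the shallow batch alone, 6 genes were called: Meg3, Dlk1, Kif26a, S100g and the antimicrobial lectin genes Reg3b and Reg3g, and in the deep batch alone Vsig2 was called.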
